A study of Mus musculus with 6 samples.

Results

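The protein-coding Hox genes of the 4 mouse clusters were followed in cultured fibroblasts from fibrotic lungs. Genes were picked by name, with earlier results of these data known, as the rows whose current or former symbol is one of 38 Hox symbols. All 38 of the 38 were found among the 24061 gene IDs of the count table. They comprise 10 genes of the Hoxa cluster, 10 of Hoxb, 9 of Hoxc and 9 of Hoxd. All cells carried a TGF-alpha transgene, whose promoter is not given in the labels, so that every library, the controls included, comes from transgenic fibrotic lung. In 3 libraries, numbered 1 to 3, the cells had received a stealth control siRNA, and in 3 libraries, numbered 4 to 6, a stealth siRNA against Wt1, a zinc finger transcription factor. Such duplexes of short RNA lead to the breakdown of a matching transcript. The sources used here do not give the duplex sequences, the age of the mice or the time from transfection to harvest. Nothing in the labels tells whether libraries of the same group stem from separate animals or cultures, so each p-value measures only how these samples spread, which may be technical.

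Hox genes encode homeodomain transcription factors that give cells a position along the body axis. Within a cluster the genes lie in the order of their paralog groups: low numbers are active in anterior and early territories, high numbers in posterior and late ones, and members of a paralog group in different clusters descend from one ancestral gene. Adult fibroblasts keep a Hox pattern that reflects the site they came from, and in the lung the mesenchyme is known for anterior genes, with Hoxa5 needed for normal lung formation. Hox proteins bind DNA together with homeodomain cofactors. Polycomb complexes keep silent Hox genes off, trithorax proteins keep active ones on, and retinoic acid is a classical activator of the anterior genes.

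The clusters lie on chromosomes 6 (Hoxa), 11 (Hoxb), 15 (Hoxc) and 2 (Hoxd) of the GRCm38 mouse genome, where the members span 98.5, 174, 116 and 96.9 kb. Promoter sequence of 4 members is shown, as the 250 bases before the annotated start, read on the gene's own strand from RefSeq GRCm38.p6. Hoxa5 is the most abundant member and rose after Wt1 siRNA, Hoxa9 had reads in the Wt1 siRNA libraries only, Hoxa10 is its neighbour without a read, and Hoxb4 is the member that lay below the controls in all 3 libraries. The capitals mark CpG dinucleotides, and the stretches are chr6:52204588-52204837 (minus strand) for Hoxa5, chr6:52227371-52227620 (minus) for Hoxa9, chr6:52240855-52241104 (minus) for Hoxa10 and chr11:96318017-96318266 (plus) for Hoxb4.
Hoxa5: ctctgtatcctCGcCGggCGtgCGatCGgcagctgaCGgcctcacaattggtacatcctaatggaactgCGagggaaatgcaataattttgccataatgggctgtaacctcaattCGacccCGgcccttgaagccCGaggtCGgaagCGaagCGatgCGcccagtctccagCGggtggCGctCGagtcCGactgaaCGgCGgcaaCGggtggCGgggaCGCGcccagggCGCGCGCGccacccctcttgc
Hoxa9: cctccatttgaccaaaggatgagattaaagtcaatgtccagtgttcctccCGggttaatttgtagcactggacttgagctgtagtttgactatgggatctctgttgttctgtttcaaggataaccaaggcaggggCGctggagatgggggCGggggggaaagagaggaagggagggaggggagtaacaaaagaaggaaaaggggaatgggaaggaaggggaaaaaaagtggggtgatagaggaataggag
Hoxa10: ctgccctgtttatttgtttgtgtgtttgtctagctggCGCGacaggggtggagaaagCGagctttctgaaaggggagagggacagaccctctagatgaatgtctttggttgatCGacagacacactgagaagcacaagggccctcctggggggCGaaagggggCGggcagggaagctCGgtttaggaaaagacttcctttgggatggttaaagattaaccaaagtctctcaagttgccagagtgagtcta
Hoxb4: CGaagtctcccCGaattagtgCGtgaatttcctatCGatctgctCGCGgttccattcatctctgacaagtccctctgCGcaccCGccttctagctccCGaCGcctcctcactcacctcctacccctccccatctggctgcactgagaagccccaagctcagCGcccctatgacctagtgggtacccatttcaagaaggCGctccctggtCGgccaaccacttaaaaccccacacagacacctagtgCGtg
The Hoxa5 stretch holds 28 CpG dinucleotides, the Hoxb4 stretch 14, the Hoxa10 stretch 7 and the Hoxa9 stretch 3. Hoxa10 has another annotated start, whose window of 300 bases (chr6:52234890-52235189) holds 21 CpG dinucleotides, against 12 in that of the printed start. RefSeq promoter windows of 300 bases, from 250 before to 50 after the start, were matched for 22 members, 10 of them among the members tested below, in 24 windows. The median CpG number of these windows was 14.5, against 7 over 32851 windows of the same length. A high CpG number did not always go with a transcript: the Hoxa13 window held 45 and Hoxd13 37, and neither gene had a read. Hoxa2, which was expressed, had 9, and Hoxa5, the most abundant member, had 29. CpG number and level were not compared over all 24 windows.

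The windows were also searched on both strands for 5 short motifs, none of which contains another. GCGGGGGCG, a site bound by WT1 and EGR1, was in 1 of 24 Hox windows, that of Hoxb8, and in 2.91% of all windows. GCGTGGGAG, a site known for WT1, was in 0 Hox windows and in 0.472% of all windows. AGGTCA, the half-site of retinoic acid receptors, was in 7 of 24 windows (Hoxa5, Hoxb4, Hoxc4, Hoxd3, Hoxd4, Hoxd8 and Hoxd10), 29.2% against 16.3% of all windows. In Hoxa5 it lies at position 292 of the window, past the start, and in Hoxb4 at position 170, where the printed strand carries its reverse complement. TGATNNAT, a site of Hox proteins bound with a cofactor, was in 4 windows and 8.85% of all, and TATAAA in 4 windows and 13.6% of all. These are matches of letters and not measured binding.

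Library totals were 26.1 to 32.1 (in units of 1e6 counts), so that 3 counts, used here as the limit that a count of 0 allows, correspond to 0.0926 to 0.113 CPM (counts per 1e6 counts of a library, scaled by TMM factors). Such limits cover counting error only, since PCR reads without molecular identifiers are not independent molecules. Wt1 had 48.8, 55.7 and 51.5 CPM in controls 1 to 3 against 11.4, 8.63 and 7.92 CPM in Wt1 siRNA libraries 4 to 6, without overlap of the groups (log2 fold change -2.48 ± 0.16 SE, edgeR quasi-likelihood test with Benjamini-Hochberg adjustment, adjusted p = 5.98e-06). On the second principal component, which held 20.0% of the variance, control library 2 stood at -42.8 and the other controls at 22.7 and 21.3. The 11 fibroblast markers summed to 28817 to 40249 CPM in controls and 41346 to 48600.5 CPM after Wt1 siRNA. The 9 epithelial markers summed to 59.9 to 82.5 CPM in controls and 76.2 to 88.5 CPM after Wt1 siRNA, with Krt8, Krt18 and Krt19 the most abundant of them, Cdh1 at 7.24 and Epcam at 5.57 CPM in controls, and Sftpc, Sftpb and Scgb1a1 at or near 0.

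The Hox genes expressed in these cells were mainly those of paralog groups 2 to 8 in the Hoxa and Hoxb clusters. At a control level of at least 1 CPM per kb of exon there were 13 members, namely Hoxa2 to Hoxa7 and Hoxb2 to Hoxb8, and all 13 had at least 10 counts in every library. Of the 14 members of paralog groups 1 to 5, 10 passed the filter on low counts, as did 6 of the 8 in groups 6 to 8 and 2 of the 16 in groups 9 to 13. By cluster, 7 of 10 Hoxa, 8 of 10 Hoxb, 2 of 9 Hoxc and 1 of 9 Hoxd genes passed. That leaves 20 members untested. Of these, 13 had no read in any library: Hoxa10, Hoxa11, Hoxa13, Hoxb1, Hoxb13, Hoxc9, Hoxc10, Hoxc11, Hoxc12, Hoxd1, Hoxd10, Hoxd12 and Hoxd13, which allows each up to 0.113 CPM in the library with the highest limit. The other 7 (Hoxc6, Hoxc8, Hoxc13, Hoxd3, Hoxd4, Hoxd9 and Hoxd11) never exceeded 14 counts in a library or 45 counts over all 6.

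**Figure D1:**
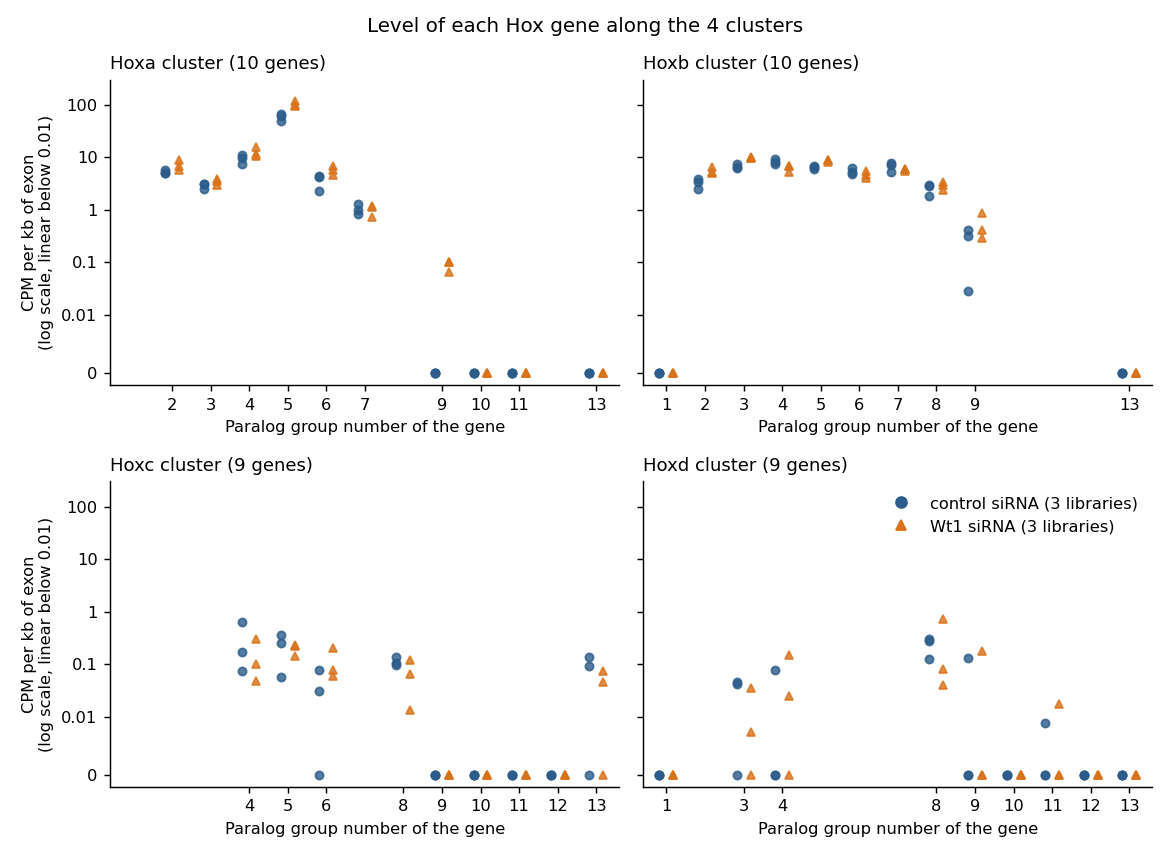
Level of every Hox gene in every library, as TMM-scaled CPM per kb of exon (vertical axis, logarithmic above 0.01 and linear below), against its paralog group number, with 1 panel per cluster, blue circles for the 3 control siRNA libraries and orange triangles for the 3 Wt1 siRNA libraries. Hoxa5 is the highest point of the 4 panels, Hoxa and Hoxb genes of groups 2 to 8 lie between 0.718 and 117 CPM per kb, and the Hoxc and Hoxd genes lie below 1.

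Hoxa5 was the most abundant Hox transcript by a wide margin. Per kb of exon it stood at 60.3, 49.0 and 65.6 CPM in controls 1, 2 and 3, a mean of 58.3 ± 8.45 (SD, n = 3), which is 6.20-fold the mean of Hoxa4, the next in order (9.41 ± 1.82). After Hoxa4 came Hoxb4 (8.22 ± 0.911), Hoxb3 (6.82 ± 0.662), Hoxb7 (6.74 ± 1.34), Hoxb5 (6.51 ± 0.404), Hoxb6 (5.42 ± 0.768), Hoxa2 (5.17 ± 0.396), Hoxa6 (3.69 ± 1.22), Hoxb2 (3.28 ± 0.680), Hoxa3 (2.89 ± 0.357), Hoxb8 (2.55 ± 0.612) and Hoxa7 (1.03 ± 0.221), all as control levels in CPM per kb. Below 1 CPM per kb were Hoxc4 (0.295), Hoxb9 (0.254), Hoxd8 (0.229) and Hoxc5 (0.224), and Hoxa9 was at 0. Of the 17 pairs of neighbours in this order, 12 overlapped between their control libraries and so were not told apart. The 5 steps without overlap were those from Hoxa5 to Hoxa4, Hoxa2 to Hoxa6, Hoxb8 to Hoxa7, Hoxa7 to Hoxc4 and Hoxc5 to Hoxa9. With the longest transcript as length, Hoxa3 moved from rank 11 to rank 6, since its exon union has 6014 bases and its longest transcript 2591. Its gene model spans 52169059 to 52213067 of chromosome 6, around Hoxa4, Hoxa5 and Hoxa6.

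After Wt1 siRNA, 4 of the 18 tested Hox genes were higher, Hoxa5, Hoxb3, Hoxb2 and Hoxa9, and 0 were lower (edgeR, adjusted p below 0.05). Among all 14190 genes tested, 9.05% were higher and 10.3% lower. Hoxa9 had no control reads and passed the filter on low counts through its treated libraries alone, so the count to set beside these shares is 3 of the 17 members with reads in both groups. The other 14 tested members did not pass in either direction. By paralog group, 3 of the 10 tested members of groups 1 to 5 were called and 0 of 6 in groups 6 to 8. The 2 tested members of groups 9 to 13 were Hoxb9, which did not pass, and Hoxa9. The median log2 fold change of the tested members was 0.34, against 0.00 for all genes tested, and 12 of the 18 (66.7%) were above 0, against 50.4% of all genes. Hoxa9 is among these 12 and in the upper part of that median, and its sign was fixed by its entry through treated reads. Both values are therefore raised by a member that could not have been lower. At an unadjusted p below 0.05 there were 7 higher members (background 15.6%) and 1 lower, Hoxb4 (background 16.5%). DESeq2 called 5 higher (background 11.1%) and 0 lower (12.0%), and limma-voom 4 higher (9.66%) and 0 lower (10.2%). Hoxa9 is included in each of these counts of higher members, at the unadjusted p and by both tools. They are therefore too large to set beside their shares. In bulk RNA, fewer cells of a type and less RNA per cell cannot be told apart, and this holds for each difference below.

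Hoxa5 was at 113, 92.0 and 123 CPM in controls 1 to 3 and at 189, 177 and 219 CPM in Wt1 siRNA libraries 4 to 6. Each Wt1 siRNA library lay above each control, with library 6 the highest and control 2 the lowest. The mean rose from 109 ± 15.9 to 195 ± 21.6 CPM (SD, n = 3), 1.78-fold, with a log2 fold change of 0.83 ± 0.13 (SE) and an adjusted p of 0.00113 (edgeR). With each library left out in turn the log2 fold change was 0.72 to 0.93 and the adjusted p at most 0.00903. Hoxa5 lies at 52201754 to 52204587 on the minus strand of chromosome 6, and no other annotated gene shares its exons.

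Hoxb3 and Hoxb2 are neighbours on the plus strand of chromosome 11, at 96307101 to 96347930 and 96351632 to 96354020 in RefSeq. Both take part in patterning the hindbrain. Hoxb3 was at 32.1, 26.6 and 28.2 CPM in controls and at 42.0, 42.1 and 44.1 CPM after Wt1 siRNA. Its groups did not overlap, and the 3 treated libraries were close to one another. Hoxb3 rose 1.47-fold (log2 fold change 0.56 ± 0.12, edgeR adjusted p = 0.00753, at most 0.0380 with a library left out). Hoxb2 was at 11.9, 8.87 and 13.5 CPM in controls and at 18.0, 18.1 and 22.6 CPM after Wt1 siRNA. Its lowest treated library exceeded its highest control. Hoxb2 rose 1.71-fold (0.77 ± 0.19, edgeR adjusted p = 0.0137), and the adjusted p was 0.0495 without Wt1 siRNA library 6. The antisense transcript Hoxb3os overlaps 52.9% of the exon bases of Hoxb3 and 27.3% of those of Hoxb2 in GENCODE vM21. The sources used here do not say whether reads were counted by strand, so reads of Hoxb3os cannot be told apart from reads of these genes, and Hoxb3os was not analysed here.

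Hoxa9, at 52223097 to 52227370 on the minus strand of chromosome 6, is known for its role in blood progenitors and leukemia. It had 0, 0 and 0 reads in the controls and 10, 16 and 18 reads in Wt1 siRNA libraries 4, 5 and 6. All 44 of its reads were therefore in treated libraries, at a mean of 0.505 ± 0.116 CPM (SD, n = 3). Against a limit of 3 counts in each control library (mean 0.104 CPM), Hoxa9 was at least 4.87-fold higher, with an edgeR adjusted p of 0.0140. It was not tested under the stricter filter, and since it was admitted to the test by its treated reads, this p adds no support to the counts themselves. The call was lost without Wt1 siRNA library 4 (adjusted p = 0.0566) and without library 5 (0.0567). The level was low: per kb of exon, Hoxa5 was 1147-fold above Hoxa9 in the treated libraries. The Hoxa9 length behind this ratio is the union of its GENCODE exons, 5580 bases. With its longest transcript, 3226 bases, the ratio would be smaller. The microRNA gene Mir196b had no read of its own. Its 85 bases lie within the Hoxa9 exons of GENCODE vM21, whose Hoxa9 model reaches 52231089. They lie outside the RefSeq span of Hoxa9 given above.

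**Figure D2:**
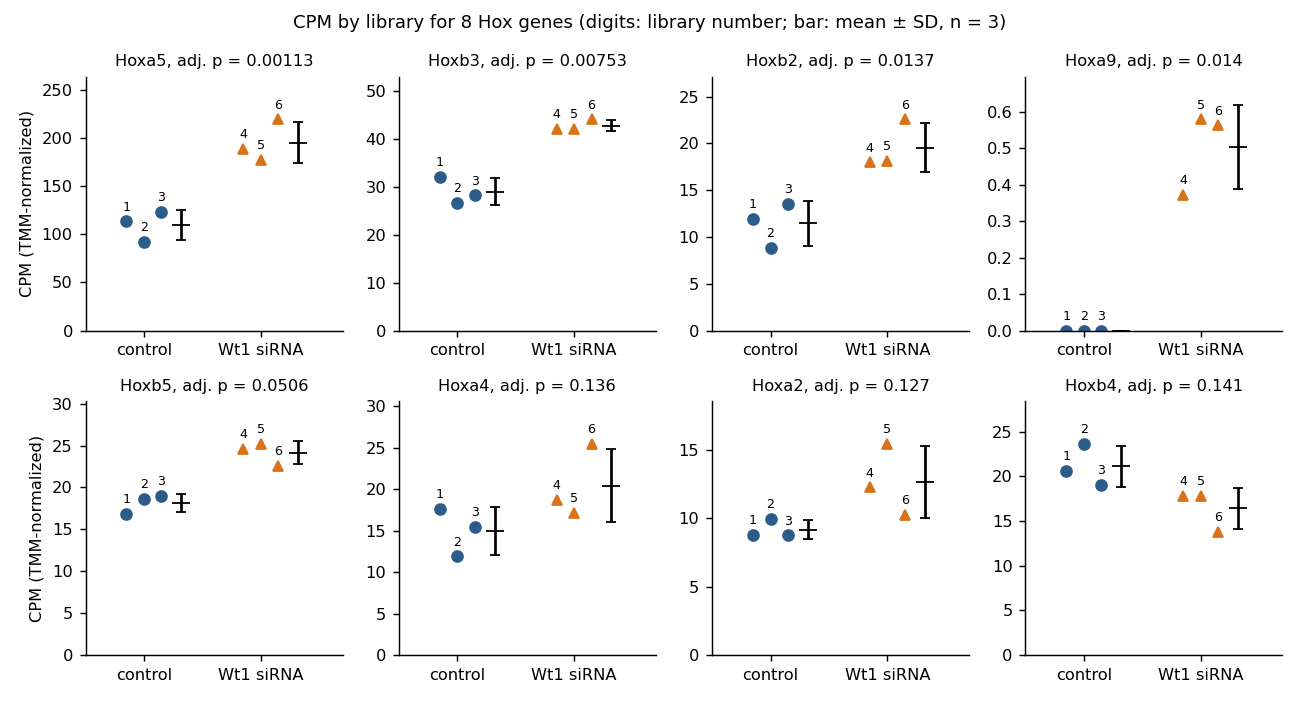
TMM-scaled CPM in each library (vertical axes from 0, scaled per gene) for the 4 members that passed and 4 that did not, with the library number at each point and a bar for mean ± SD (n = 3). The treated libraries lie above all controls for Hoxa5, Hoxb3, Hoxb2, Hoxa9, Hoxb5 and Hoxa2, below them for Hoxb4, and overlap them for Hoxa4.

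Several members did not pass but had groups that did not overlap. In all, 7 tested members had the 3 treated libraries above the 3 controls (18.1% of all genes tested) and 1 had them below (18.3%). Hoxa9 is 1 of the 7 and entered the test through its treated reads alone, so the 7 are too many to set beside that share. Hoxb5, known for a part in airway branching, was at 16.9, 18.6 and 18.9 CPM in controls and at 24.6, 25.2 and 22.6 CPM after Wt1 siRNA. It just missed the threshold (log2 fold change 0.41 ± 0.13, edgeR adjusted p = 0.0506) and passed it with DESeq2 (0.0383) and with a stricter filter (0.0489). Hoxa2, which patterns the branchial arches, was at 8.80, 9.99 and 8.76 CPM in controls and at 12.3, 15.5 and 10.2 CPM after Wt1 siRNA (0.46 ± 0.20, adjusted p = 0.127). Hoxa6, which acts in the thoracic region of the axis, was at 2.01, 3.73 and 3.95 CPM in controls and at 5.13, 4.10 and 6.07 CPM after Wt1 siRNA (0.66 ± 0.32, adjusted p = 0.174). For these genes the treated libraries were the higher ones, but the differences did not pass over all genes tested.

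Hoxb4, a regulator of blood stem cells, was the member with the opposite order: 20.6, 23.6 and 19.1 CPM in controls and 17.8, 17.8 and 13.8 CPM after Wt1 siRNA. All 3 treated libraries were below all 3 controls, and the difference did not pass (log2 fold change -0.36 ± 0.16, edgeR adjusted p = 0.141). Hoxb4, at 96318267 to 96321638 of chromosome 11, lies inside the RefSeq span of Hoxb3, and Hoxb5 lies just before that span. In GENCODE vM21, Hoxb3 starts at 96323326, past the end of Hoxb4. Hoxa4, the next most abundant member after Hoxa5, was at 17.7, 11.9 and 15.4 CPM in controls and at 18.7, 17.2 and 25.5 CPM after Wt1 siRNA. Its groups overlapped through control 1 and Wt1 siRNA library 5, and it did not pass (0.45 ± 0.20, adjusted p = 0.136). An antisense transcript, Gm29430, overlaps 16.0% of the Hoxa4 exon bases.

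The remaining 6 Hoxa and Hoxb genes gave overlapping groups, and all but Hoxb9 had log2 fold changes between -0.20 and 0.26. Hoxa3, needed for thymus and parathyroid development, had 0.26 ± 0.16 (edgeR adjusted p = 0.303) and Hoxb8 0.20 ± 0.25 (0.627). Hoxb6 had -0.19 ± 0.20 (0.559) and Hoxb7 -0.20 ± 0.20 (0.545). Hoxa7 had -0.03 ± 0.35 (0.972), with 20.4% of its exon bases shared with the antisense Hoxaas3. Hoxb9, the last expressed gene of its cluster, varied within groups from 0.0752 to 1.08 CPM in controls and from 0.751 to 2.27 CPM after Wt1 siRNA (1.04 ± 0.81, adjusted p = 0.417). In these 6 genes no difference passed the test in either direction.

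**Figure D3:**
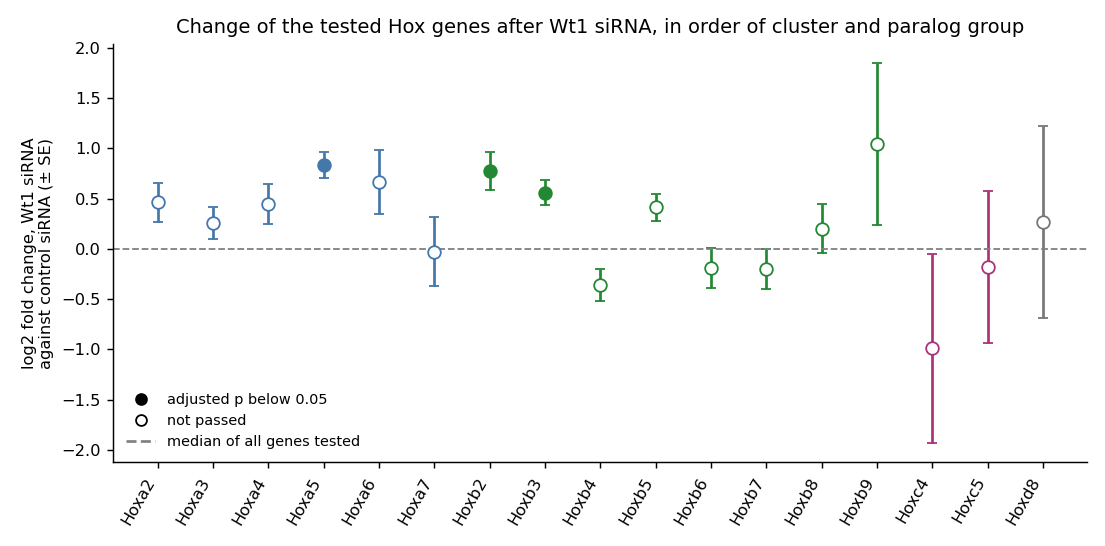
Log2 fold change of Wt1 siRNA against control siRNA (vertical axis, points, with ± SE as bars) for 17 tested Hox genes in the order of cluster and paralog group, filled where the edgeR adjusted p is below 0.05; Hoxa9 is left out because its control counts are 0. Hoxa5 (0.83), Hoxb2 (0.77) and Hoxb3 (0.56) are filled, and the sparse Hoxb9, Hoxc4, Hoxc5 and Hoxd8 carry the widest bars.

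Hoxc and Hoxd transcripts were sparse and uneven between libraries. Hoxc4 had 14, 47 and 5 counts in controls and 7, 21 and 4 after Wt1 siRNA (log2 fold change -0.99 ± 0.94, edgeR adjusted p = 0.523). Hoxc5 had 25, 5 and 30 counts in controls and 19, 19 and 14 after Wt1 siRNA (-0.18 ± 0.76, 0.908). Hoxd8 had 24, 23 and 9 counts in controls and 53, 3 and 7 after Wt1 siRNA (0.27 ± 0.95, 0.887), so that 1 treated library held most of its treated reads. In each of these 3 genes libraries of a single group differed by more than the group means did. Hoxd9 had 9 counts in control 1, 12 in Wt1 siRNA library 6 and 0 in the other 4 libraries. Hoxd3 shares 388 exon bases with Hoxd4, and Hoxc5 shares 166 with Hoxc10, so reads of these pairs could have been split or shared in the counting.

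Hoxa5 made up a larger share of the Hox transcript pool in the treated libraries. Summed over the 38 members, the level was 124, 111 and 129 CPM per kb in controls and 177, 168 and 195 after Wt1 siRNA. Hoxa5 made up 48.7%, 44.1% and 50.8% of this sum in controls and 56.8%, 56.2% and 59.8% after Wt1 siRNA, means of 47.9 ± 3.40% and 57.6 ± 1.93% (SD, n = 3). The treated libraries were above all controls in both respects. Without Hoxa5 the sum of the other members went from 63.1 ± 0.831 to 76.2 ± 2.42 CPM per kb, so the rest of the pool was higher too, by a smaller margin. The Hoxa cluster made up 66.2 ± 2.81% of the pool in controls and 74.4 ± 2.35% after Wt1 siRNA, and the Hoxb cluster 32.9 ± 2.65% and 25.0 ± 2.25%. Hoxc genes made up 0.620% and 0.320%, and Hoxd genes 0.274% and 0.228%. Paralog group 5 held 53.4 ± 3.08% and 62.6 ± 1.28%, and group 4 14.8 ± 1.28% and 10.8 ± 0.232%. The lower Hoxb share went with a higher summed Hoxb level, 39.8 ± 0.170 CPM per kb in controls and 44.8 ± 0.958 after Wt1 siRNA. The summed level of paralog group 4 was 18.0 ± 1.14 and 19.4 ± 1.88 CPM per kb, with overlap between control and treated libraries. These shares and sums rest on the same reads as the fold changes above and were not tested. Of the 13 expressed members, control library 2 was the lowest of the 6 libraries in 5, and Wt1 siRNA library 6 the highest in 6.

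The genes that act upon Hox genes changed in both directions, and the medians of their lists were between -0.03 and 0.23. The lists were the Polycomb subunits, trithorax proteins with the H3K27 demethylases, and retinoid genes, read against 9.05% higher and 10.3% lower of all genes. Of 27 Polycomb subunits 3 rose and 2 fell (median 0.03). Suz12, a core subunit of the complex that methylates H3K27, fell from 66.5 ± 7.44 to 36.8 ± 5.39 CPM (-0.85 ± 0.14, adjusted p = 0.00134). The catalytic subunit genes Ezh2 (-0.31, adjusted p = 0.104) and Ezh1 (0.27, 0.220) did not pass. Aebp2 (0.46) and Pcgf6 (0.68) rose, both calls lost without control 1, Wt1 siRNA library 4 or library 5 (adjusted p up to 0.0618 and 0.0777). Bmi1 (0.51) and Phc3 (-0.35), which the naming rule did not pick, lost their calls in 4 and 5 of the 6 runs with a library left out (adjusted p up to 0.158 and 0.151).

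Of 12 trithorax and demethylase genes 1 rose and 1 fell (median -0.03). Kdm6b, an enzyme that removes H3K27 methylation, rose from 59.4 ± 6.39 to 95.8 ± 3.32 CPM (log2 fold change 0.69 ± 0.11, edgeR adjusted p = 0.00143), and Ash1l, a trithorax-group methyltransferase, fell from 132 ± 3.27 to 80.7 ± 3.16 CPM (-0.71 ± 0.10, 5.36e-04). Both calls held with each library left out. Kmt2a, the trithorax homolog best known at Hox genes, did not pass (-0.13, 0.506). Of 14 tested retinoid genes 4 rose and 2 fell (median 0.23). The receptor gene Rarb rose from 68.2 ± 6.75 to 107 ± 9.07 CPM (0.65 ± 0.12, adjusted p = 0.00242), and Aldh1a2, which makes retinoic acid, fell from 87.9 ± 12.98 to 46.1 ± 7.14 CPM (-0.93 ± 0.15, 0.00112). Rarg rose by 0.52 ± 0.13 (0.0136), but reached 0.0539 to 0.0766 without control 1, control 3, Wt1 siRNA library 4 or library 5. Rara (0.41) and Crabp2 (0.79) rose and the retinol transporter Stra6 fell by 1.58, and of the 6 runs with a library left out, 5, 4 and 1 lost these calls (adjusted p up to 0.158, 0.0872 and 0.0735, the last without control 3). The ParaHox and Cdx genes, relatives of the Hox genes that mark the gut and posterior body, had 0 reads in all 6 of 6 genes.

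**Figure D4:**
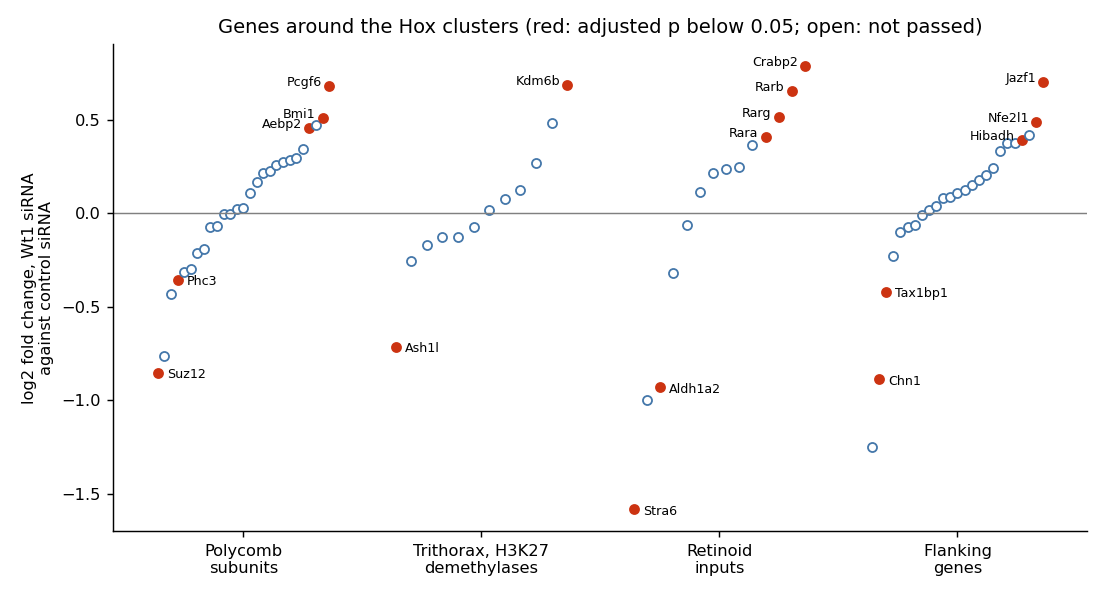
Log2 fold change of Wt1 siRNA against control siRNA (vertical axis) for the tested genes of 4 lists around the Hox clusters, each point a gene sorted within its list, red where the edgeR adjusted p is below 0.05 and open where not. Red points lie on both sides of 0 in the Polycomb, trithorax, retinoid and flanking lists, from Stra6 at -1.58 to Crabp2 at 0.79.

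The other transcripts of the clusters and the genes beside them were examined too. Of 8 noncoding RNA genes of the clusters that were matched, 5 had no read and 2 were tested, with 0 calls by edgeR and 0 at an unadjusted p below 0.05. The more abundant of them, Mira, a noncoding RNA of the Hoxa cluster, was at 8.72 ± 1.06 and 9.92 ± 0.975 CPM (log2 fold change 0.19 ± 0.19, adjusted p = 0.553). Of 6 microRNA genes of the clusters 4 had no read and 0 could be tested. Protein-coding genes beside the clusters, 25 of them tested, numbered 3 higher and 2 lower (median 0.11), read against 9.05% and 10.3% of all genes. Chn1, 893 kb from the Hoxd genes, fell by 0.89 ± 0.15 (edgeR adjusted p = 0.00162). On the Hoxa side, Hibadh, at 285 kb, rose by 0.39 ± 0.10 (0.0160, up to 0.0685 without Wt1 siRNA library 4 or 5, and 0.0563 with library size scaling), and Tax1bp1, at 453 kb, fell by 0.42 ± 0.10 (0.0146, up to 0.0760 without control 3 or Wt1 siRNA library 4). Jazf1 (0.70) and Nfe2l1 (0.49) were also higher, with adjusted p up to 0.110 and 0.0813 with a library left out (control 1 and Wt1 siRNA library 4 for both, and control 3 and library 5 for Nfe2l1). Evx1 and Evx2, the homeobox genes that border the posterior ends of the Hoxa and Hoxd clusters, had no read. Skap2, 150 kb from Hoxa2, was at 117 and 118 CPM, and Mtx2, 60.7 kb from the Hoxd genes, did not pass (0.33, adjusted p = 0.0551).

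Markers of region and of other cells were measured beside the Hox genes, and their part in the Hox differences was not tested. The calls in each list are read against 9.05% higher and 10.3% lower of all genes tested. Of 12 tested regional mesenchyme factors other than Hox genes 1 rose and 1 fell (median -0.15): Foxf1, a regulator of lung mesenchyme, rose by 0.65 ± 0.14 (edgeR adjusted p = 0.00728), and Tbx4, which marks lung mesenchyme, fell by 0.53 ± 0.12 (0.00955, and 0.0513 without Wt1 siRNA library 4). All 6 mesothelial markers changed, 2 up (Krt19 and Msln) and 4 down (Upk3b, Lrrn4, Calb2 and Wt1 itself). Their summed level was 174 to 208 CPM in controls and 100 to 126 CPM after Wt1 siRNA. This sum includes Wt1, the target of the siRNA, so part of its fall was set by the treatment. A sum without Wt1 was not taken. Lrrn4 fell by 2.10 ± 0.15 (1.27e-05), Krt19 rose by 1.12 ± 0.19 (0.00158), and the call of Calb2 was lost without any one of 5 libraries (all but Wt1 siRNA library 6, adjusted p up to 0.174). Of the 11 fibroblast markers 5 rose and 2 fell: Col1a1 rose by 1.13 ± 0.19 (0.00172) and Col1a2 by 0.74 ± 0.14 (0.00365), and Pdgfra fell by 1.17 ± 0.13 (1.48e-04). Of the 6 smooth muscle markers 1 rose, Acta2, by 0.72 ± 0.14 (0.00399), with sums of 4369.6 to 5527 CPM in controls and 5427 to 8024 CPM after Wt1 siRNA. Of the 6 tested epithelial markers Krt19 was higher and Krt18 lower (-0.59 ± 0.16, 0.0214, up to 0.102 without control 2, Wt1 siRNA library 4 or library 6). Endothelial markers summed to 91.8 to 113 and 77.8 to 91.6 CPM, with Kdr lower (-0.88 ± 0.23, 0.0191, up to 0.0904 without control 1, control 3 or Wt1 siRNA library 4). Macrophage and leukocyte markers summed to 40.7 to 51.1 and 33.9 to 38.6 CPM, with Cd14 lower (-1.15 ± 0.22, 0.00370) and Adgre1 at 0 in the controls.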

How the data were processed

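RNA sequencing counts of 6 libraries were used, 3 with control siRNA and 3 with Wt1 siRNA, grouped by the sample titles. The deposited values are raw counts per Entrez gene ID, whole numbers that the authors did not normalize. Tools named in the submitters' processing notes are TopHat, DESeq, CASAVA 1.8 and bcl2fastq, and the build is mm10 (GRCm38). The sources used here do not give the counting tool, annotation or strand setting, so reads shared by paralogs or by overlapping genes could have been assigned either way. RefSeq GRCm38.p6 named 23976 of 24061 IDs and GENCODE vM21 another 7, and 78 stayed unnamed. Exon lengths are unions of GENCODE exons.

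All genes were tested together with the quasi-likelihood test of edgeR 4.0.16 in R 4.3.3 (TMM, filterByExpr, 14190 genes kept, Benjamini-Hochberg over these, threshold 0.05). CPM values use TMM factors (0.940 to 1.07). Each SE was obtained from the log2 fold change and the square root of its F value. Alternatives were RLE factors, library size scaling, no filter, a filter of 1 CPM in 3 libraries, robust shrinkage, limma-voom (limma 3.58.1), DESeq2 1.42.0, and each library left out. Chi-square values per degree of freedom were 18.9 to 70.9 for the 6 pairs of libraries within groups, so that none was a repeat of another. The procedure was tested on simulated data.

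The members and lists were chosen with earlier results of these data known. Described in full were Wt1, each member past the threshold, and the pair of members per cluster with the highest level per kb, taken as the mean over all 6 libraries (in Hoxb, Hoxb3 and Hoxb5). For each list the rule named the 3 genes with the smallest p past the threshold, or the most abundant gene where none passed. Hoxb4, Hoxa2, Hoxa6, Hoxb9, Bmi1, Phc3, Rara, Crabp2, Stra6, Jazf1, Nfe2l1, Msln, Upk3b and Calb2, and the genes named without a call, were added after their values were seen.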

Additional observations from a re-analysis of the deposited data

How the results depend on the processing

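The count of higher Hox genes was 4 in all settings but 3: it was 5 with DESeq2, which added Hoxb5, and 3 without Wt1 siRNA library 4 and without library 5, where Hoxa9 was lost. With the stricter filter it was also 4, with Hoxb5 called and Hoxa9 not tested. Hoxa5, Hoxb2 and Hoxb3 were called in every setting, and no Hox gene was called lower in any. Over all genes, 1284 were higher and 1459 lower, against 855 and 1829 with library size scaling alone, which moved the median log2 fold change of all genes to -0.08. With each library left out in turn, 578 to 1253 genes were higher and 785 to 1406 lower, the lowest without Wt1 siRNA library 4; without library 5 there were 836 higher. Genes of the context lists past the threshold numbered 38, and 20 without Wt1 siRNA library 4. Among Hox genes that did not pass, the log2 fold change turned sign for Hoxa7 (range -0.16 to 0.17 with a library left out), Hoxc4 (-1.96 to 0.28), Hoxc5 (-0.63 to 0.35, and 0.12 with limma-voom) and Hoxd8 (-1.90 to 0.78, and -0.71 with limma-voom), and the cause was not tested. No paired analysis was possible because the groups share no replicate numbers. Low counts limit the Hoxc and Hoxd genes and Hoxa9.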

Other observations

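Homeobox genes outside the Hox clusters were set beside the Hox genes, from a list of 93 written after the Hox values were seen. Of the 93, 26 had no read and 39 were tested, of which 2 were higher and 5 lower (edgeR, adjusted p below 0.05), against 9.05% and 10.3% of all genes tested, and the median log2 fold change was 0.00. The most abundant was Prrx1, a marker of mesenchyme, which fell from 323 ± 41.1 to 209.7 ± 29.0 CPM (SD, n = 3; log2 fold change -0.62 ± 0.13, edgeR adjusted p = 0.00599). Meox2, a mesoderm homeobox gene, fell from 17.7 ± 4.15 to 6.57 ± 2.21 CPM (-1.43 ± 0.26, 0.00300), Zhx1 from 65.0 ± 4.98 to 29.4 ± 1.31 CPM (-1.15 ± 0.12, 8.72e-05) and Cux1 from 70.2 ± 2.37 to 44.9 ± 0.648 CPM (-0.64 ± 0.10, 0.00141). These 4 calls held with each library left out. Zeb2 fell by 0.32 ± 0.10 (0.0411), Tgif2 rose by 0.82 ± 0.21 (0.0169) and Nkx6-2 by 0.95 ± 0.25 (0.0186), and of the 6 runs with a library left out the Zeb2 call was lost in all 6, Tgif2 in 3 and Nkx6-2 in 4 (adjusted p up to 0.162, 0.0820 and 0.0771).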
